A study of Mustela putorius furo with 2 samples.

Results

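The cells described here are oligodendrocyte precursors of the newborn ferret cortex, chosen from single-cell RNA by the transcripts they held. A cell was a member when the UMIs (unique molecular identifiers, which tag each captured RNA molecule) of PDGFRA and SOX10 summed to at least 2, OLIG1 had at least 1 UMI and CLDN5, an endothelial tight junction gene, had 0. Of 14787 cells, 218 were members: 156 of 9782 cells in library A (1.59%, exact 95% binomial interval 1.36 to 1.86) and 62 of 5005 in library B (1.24%, 0.951 to 1.59). The intervals cover counting error only.

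The study profiled dissociated dorsal cortex of wild-type (WT) ferret pups (Mustela putorius furo) at postnatal day 3 with the 10x Genomics droplet platform, as 2 replicates of a single group, with no second genotype or treatment. Cells of both replicates stand in 1 table, and the barcode suffix was read as the library. The labels do not say which replicate a suffix is, nor whether the replicates are separate animals. Every p-value below rests on counting error and on a spread between 2 libraries that is largely shared across genes and may be technical. A very small p-value is therefore no measure of how much that gene itself varied between the libraries, nor of variation between animals.

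Oligodendrocyte precursors divide and migrate through the developing brain and give rise to the myelinating oligodendrocytes. PDGFRA is the receptor for platelet-derived growth factor, which drives their proliferation, and SOX10, OLIG1 and OLIG2 are transcription factors of the lineage. As the cells commit to differentiation they lose PDGFRA and the cell cycle and switch on genes such as BCAS1, ENPP6 and MYRF, and then those of myelin.

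The choice rested on measured counts, so the values of the 4 gate genes are a description and were not tested. Members held a median of 3 PDGFRA UMIs (range 0 to 15, with 199 of 218 above 0), a median of 0 SOX10 UMIs (0 to 6, with 107 above 0) and a median of 12 OLIG1 UMIs (1 to 35). In all, 229 cells reached the sum of 2 for PDGFRA and SOX10, of which 8 were left out for lack of OLIG1 and 3 for a CLDN5 UMI. OLIG1 itself was wider: 844 cells had it without CLDN5. The 59 members with a sum of exactly 2, just inside the threshold, had LHFPL3, a tetraspan membrane protein gene, at 2552 and 2153 CPM (the UMIs of a gene scaled to a common total per class and library, as counts per 1000000) in libraries A and B, and the 107 cells with a sum of 1, just outside, had it at 1628 and 1246 CPM. EGFR, the epidermal growth factor receptor, was at 763 and 175 CPM just inside, at 823 and 583 CPM just outside and at 258 and 80.7 CPM over all members.

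Members were deeper than the other cells: the median member held 5082.5 UMIs, with extremes of 1594 and 14084, against 3426 in the rest of the table. Their median mitochondrial share was 1.39%. Of 21 barcode sequences found under both suffixes, 0 belonged to a member, and 2 members also held UMIs of both HOPX and CLU, which mark astroglia and radial glia. The doublet caller marked 6 cells in the whole table, too few to have worked, and 17 members (7.80%) had a doublet score above 0.2.

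The members were not uniform, and a wide division followed PDGFRA. In 19 of them (12 in library A and 7 in library B) PDGFRA had 0 UMIs, so that SOX10 alone had let them in. These 19 cells carried 410 of the 590 BCAS1 UMIs of all members, 62 of 76 for CLDN11, a myelin tight junction gene, and 23 of 25 for ENPP6. BCAS1, which marks newly forming oligodendrocytes, stood at 3489 and 2819.8 CPM in the 19 cells of libraries A and B and at 176 and 125 CPM in the 199 members with PDGFRA. CLDN11 stood at 624 and 237 CPM against 13.6 and 9.85 CPM. The libraries ran the same way for both genes, with the 19 cells far above the rest.

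Of the 15 genes with the highest ratio between these cells at 5 or more UMIs in each library, several have known roles in axon contact and the myelin sheath. NFASC, an adhesion protein of the axon and glia junction, had 128 UMIs in 15 of the 19 cells and 44 in 36 of the 199. TUBB4A, a tubulin of oligodendrocytes, had 164 and 49, and the cell cycle inhibitor CDKN1C had 451 and 209. SEMA3E, a secreted guidance protein, had 34 and 1. PLPP2 and TMEM88B had 25 and 18 UMIs in the 19 cells and 0 in the others. MYRF, the transcription factor that drives myelin genes, had 14 and 5. NFASC and TUBB4A were not particular to the lineage. In cells with at least 2 UMIs of NEUROD6, a gene of excitatory neurons, NFASC was at 135 and 112 CPM in libraries A and B, against 149 and 112 in all members. TUBB4A was at 126 and 138 CPM there, against 169 and 182. The genes of this paragraph and of the next were named after their values were seen.

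The same 19 cells had few UMIs of cell cycle genes: 0 of CENPF, UBE2C and CKS2 and 1 of TOP2A. Among the 199 members with PDGFRA, CENPF had 268, UBE2C 236, CKS2 221 and TOP2A 274 UMIs. ETV5, a transcription factor induced by growth factor signals, had 0 UMIs against 204, and SOX9, a factor of glial progenitors, had 1 against 315. CHRM3, a muscarinic acetylcholine receptor, stood at 31.8 CPM (exact 95% Poisson interval 8.68 to 81.5) against 329 (296 to 365). Genes of the lineage were closer: OLIG2 was at 255 CPM (174 to 359.7) against 367 (332 to 405), and PCDH15, a protocadherin of precursors, was at 462 (351 to 597) against 518 (477 to 562). The 19 cells were chosen by a gate gene and compared as 2 sums, so there is no test of this split, and the intervals cover counting error only. Their median depth was 6023 UMIs against 5001 in the other members, and 1 of the 19 had a doublet score above 0.2. The gate therefore took in cells with high levels of committed oligodendrocyte genes beside the precursors. Below, many of the results that may rest on them, though not all, are also given for the 199 members with PDGFRA.

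**Figure D1:**
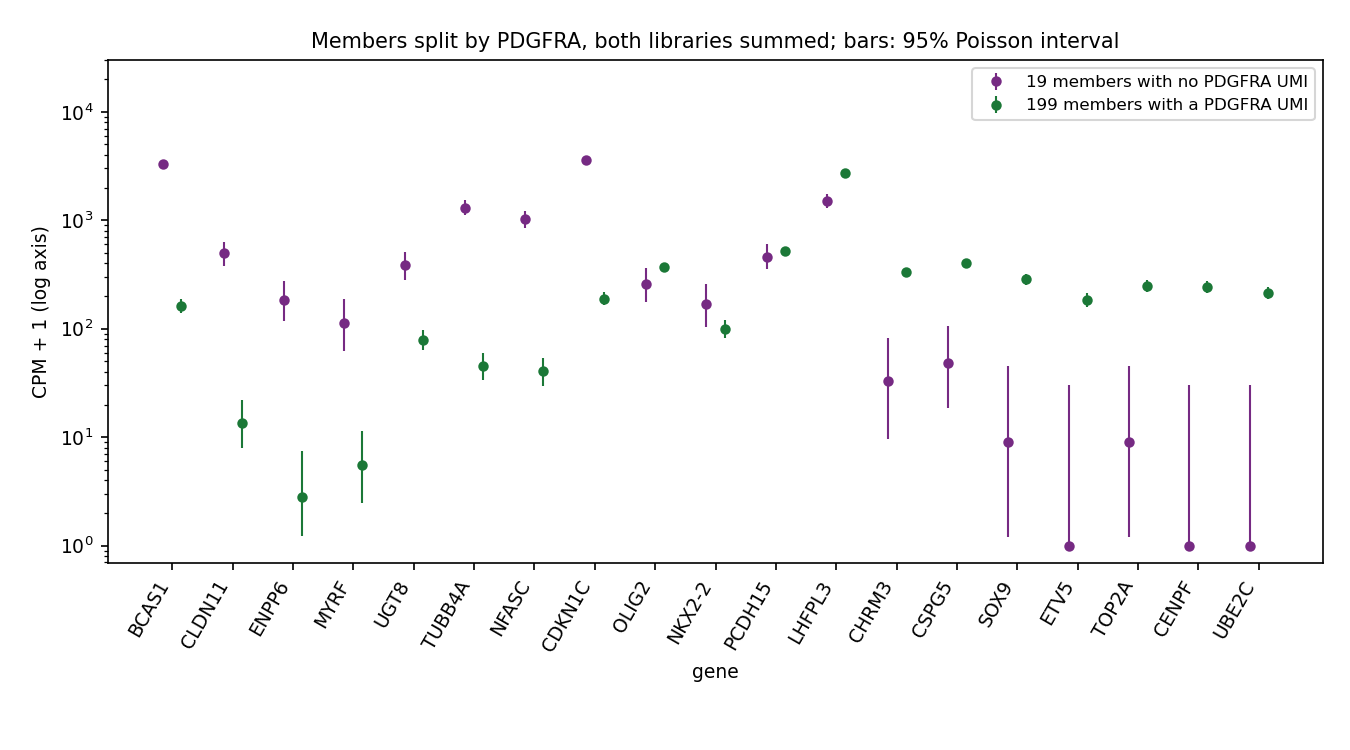
CPM plus 1 on a log axis for 19 genes, in the 19 members with no PDGFRA UMI (purple) and the 199 with at least 1 (green), both libraries summed; bars are exact 95% Poisson intervals. BCAS1, CLDN11, ENPP6 and MYRF are higher in the 19 cells, OLIG2 and PCDH15 lie close together, and SOX9, ETV5 and the cycle genes TOP2A, CENPF and UBE2C are at or near 0 in the 19 cells.

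For comparisons across genes, UMIs were summed per class and library and fitted with edgeR's quasi-likelihood test with the library as a block. A gene was called when its adjusted p (Benjamini-Hochberg over all genes tested) was under 0.05, the fitted difference was at least 2-fold and both libraries had the same sign. A difference of 1 on the log2 scale is 2-fold, and n = 2 libraries throughout.

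Compared with the 14569 other cells, members were higher for most of the listed genes that mark precursors elsewhere. These genes lie outside the gate. The list was chosen with earlier results of these data known, so it is no independent check of the label. Of 29 such marker genes, 29 were tested and 25 were called higher and 0 lower, where 5.35% of all 15098 genes tested were called higher and 6.62% lower (12% in either direction). With the 199 members that held PDGFRA the count was again 25 of 29 (4.91% of all genes called higher and 6% lower), and the median difference of the list was 2.88 on the log2 scale against -0.09 for all genes. OLIG2 had 376 and 303 CPM in members of libraries A and B and 15.6 and 15.6 CPM in the other cells, a difference of 4.40 on the log2 scale (SE 0.15, adjusted p = 1.12e-186) by edgeR. LHFPL3 had 2713 and 2344 CPM against 90.6 and 76.1. TNR, an extracellular matrix protein of oligodendrocyte lineage cells, had 420.2 and 306 CPM against 10.7 and 10.6, a difference of 5.05. In each case the 2 member libraries lay close together and more than 10-fold above the other cells.

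The other markers varied in size. C1QL1, a secreted complement-related protein, was higher by 6.92 and NKX2-2, a transcription factor of the lineage, by 6.76. CNTN1, an adhesion molecule, differed by 4.73, PCDH15 by 5.19, SOX8 by 2.91 and SOX6 by 1.51. The markers not called higher included SOX5 at 0.25, CALCRL at 0.79 and COL9A3 at -0.46. CSPG4, which encodes the proteoglycan NG2, was scarce: 17 UMIs in 15 of 218 members, or 8.99 and 25.9 CPM in libraries A and B. It was called higher by 3.57, though not in cells thinned to 1500 UMIs. GPR17, a receptor of precursors about to differentiate, had 21 UMIs in 18 members and 18 and 14.4 CPM.

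Cell by cell LHFPL3 and PCDH15 were common among members, whereas CSPG4 and GPR17, as given above, were found in few. Thinned to 1500 UMIs each, 92.7% of members had an LHFPL3 UMI (98.2% unthinned), 53.2% a PCDH15 UMI (80.3% unthinned) and 22.0% a BCAS1 UMI (31.2% unthinned). In 3442 cells with at least 2 UMIs of NEUROD6, a gene of excitatory neurons that serve here as the background, the thinned shares were 1.80%, 1.69% and 0% (4.50%, 3.81% and 0.029% unthinned). These cells held a median of 3433.5 UMIs. LHFPL3 was thus found in nearly every member and BCAS1 in a minority.

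Many genes of committed oligodendrocytes and of myelin were also higher. Of 18 tested genes of the committed list (21 listed), 10 were called higher and 2 lower, with a median of 1.91, and of 7 tested myelin genes (13 listed) 4 were called higher and 0 lower. With the 199 PDGFRA members 8 of 18 committed genes were called higher and 4 lower, with a median of 1.02, and 3 of 5 myelin genes higher and 0 lower. MBP, MOBP and CNP had no UMI in any cell of the table and count as unmeasured. BCAS1 had 487 and 453 CPM in members against 5.32 and 9.7, a difference of 6.02, and 4.43 with the 199 PDGFRA members, still called. UGT8, an enzyme of myelin lipid synthesis, differed by 5.58 and 5.08. ENPP6 differed by 3.21 with all members but by -0.23 with the 199 (adjusted p = 0.947 by edgeR), where it was not called. In thinned cells and under a stricter gate, which asked for a UMI of both PDGFRA and SOX10, ENPP6 was not called either. MYRF lost its call with the 199, going from 4.97 to 3.22. Libraries A and B alone gave 3.78 and 2.28 for ENPP6 and 5.38 and 4.29 for MYRF.

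By the rule for named genes, the largest positive differences belonged to IRX2, IRX1, VWC2, C1QL1, NKX2-2, POSTN, APOD, BCAS1, CDCP1, SCIN, GFRA1 and MATN4. IRX1 and IRX2, homeobox transcription factors that lie side by side in mammalian genomes, had 30 UMIs each, in 25 and 26 members. All the other 14569 cells held 8 UMIs of IRX1 and 2 of IRX2. VWC2, a secreted protein that binds bone morphogenetic proteins, had 37 UMIs in 29 members against 11 in the other cells. APOD, a lipid carrier, had 383 and 383 CPM in members and 5.3 and 5.87 CPM in the other cells, and POSTN, a matrix protein, had 153 and 173 against 0.879 and 3.18. POSTN was found in 52 members, with up to 17 UMIs in 1 cell, while APOD was found in 172.

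The members were richer in several channels and transmitter receptors than the other cells. Of 26 tested genes of that list (29 listed), 14 were called higher and 6 lower. The AMPA receptor subunit GRIA4 had 379 and 320.0 CPM against 24.7 and 17.7, a difference of 3.96 on the log2 scale (SE 0.14, adjusted p = 2.38e-173) by edgeR. KCND2, a potassium channel subunit, differed by 3.23, CHRM3 by 3.61 and the metabotropic glutamate receptor GRM5 by 2.66. The lower ones were GRIN2B at -1.64, GRM7 at -1.82, SCN3A at -1.26 and the GABA receptor subunits GABRA2 at -1.46, GABRB1 at -1.56 and GABRG1, with 2 UMIs against 528. Libraries A and B alone gave -1.38 and -0.65 for SCN3A and -1.81 and -0.60 for GABRA2, and DESeq2 and the stricter gate called neither of these nor GABRG1. The AMPA and kainate receptor subunits GRIA2, GRIA3, GRIA4, GRIK1, GRIK2 and GRIK4 were all called higher, and GRIA1, at -0.48, was not called.

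Matrix and adhesion genes were called higher more often than lower. Of 19 tested matrix and proteoglycan genes 9 were called higher and 4 lower: PTPRZ1, a receptor phosphatase that is also shed as a proteoglycan, had 2115 and 1877 CPM in members against 443 and 408, and the brain proteoglycans BCAN and CSPG5 differed by 2.99 and 2.76. HAPLN1, which links hyaluronan to proteoglycans, differed by 3.90, whereas TNC was at -2.02 (-1.69 and -3.02 in libraries A and B alone). Of 21 adhesion and synapse organiser genes 10 were called higher and 2 lower, with OPCML at 4.56 and its relative NTM at -1.78, so that these 2 IgLON genes went opposite ways. Of 21 migration and guidance genes 2 were called higher, the netrin receptor DCC at 1.16 and its ligand NTN1 at 4.83, and 9 lower, among them ROBO2 at -1.92, NRP1 at -2.29 and the chemokine receptor CXCR4 at -1.15, which DESeq2 did not call.

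Growth factor signalling genes outside the gate were mixed. ERBB3, the neuregulin receptor of the oligodendrocyte lineage, was higher by 5.02 and EGFR by 1.17, while FGFR2 was lower, at -2.22. PDGFRB, which marks mural cells elsewhere, was also lower, with 1 UMI against 1074. Of those UMIs 352 were in the HOPX and CLU cells described below, so PDGFRB was not confined to mural cells here. With the 199 PDGFRA members ERBB3 was at 3.75, still called. In libraries A and B alone ERBB3 was at 5.47 and 4.29 and FGFR2 at -2.76 and -1.34. EGFR differed between the libraries, with 258 and 80.7 CPM in members of A and B against 83.9 and 69.9 in the other cells. Library A alone gave a difference of 1.58 and library B alone 0.14, so the call rests on library A, and neither DESeq2 nor the stricter gate made it. The ligand PDGFA was itself higher, with 21.3 and 8.65 CPM against 2.66 and 2.32, a difference of 2.68 (2.99 and 2.01 in libraries A and B alone), which was not called in thinned cells or under the stricter gate. Of 13 genes induced by receptor tyrosine kinase and ERK signals, 8 were called higher and 1 lower. They included the feedback inhibitor SPRY4 at 4.01, ETV4 at 2.96, the phosphatase DUSP6 at 1.81 and cyclin D1 (CCND1) at 3.16, while DUSP4 was lower, at -1.98. Most of this list did not set members apart from the EGFR and OLIG1 cells described below. Against those cells 2 of 12 tested genes were called higher, SPRY4 and CCND1, and 0 lower, with a median of 0.03.

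Genes of other cell types were mostly called lower. Excitatory neuron genes had 0 of 11 called higher and 9 lower, and dorsal patterning genes 0 of 8 higher and 6 lower, among them PAX6 at -1.83, LHX2 at -1.73 and EMX2 at -1.11. EMX2 was still at 88.8 and 104 CPM in members, against 196 and 189 in the others. Ventral patterning genes had 2 of 14 called higher, GSX2 at 3.08 and NKX2-1 at 3.75, and 3 lower. NKX2-1 rested on 16 member cells and was not called in thinned cells. The largest negative differences by the rule were those of C1QC, C1QA, C3, ZNF334, HBA1, SPP1, APOA1, HBM, CCN4, NXPH4, GNG11 and UCP2. Of these C1QC, C1QA, C3 and ZNF334 had 0 UMIs in members, and HBA1 and HBM encode haemoglobin chains of red blood cells. Endothelial genes had 0 of 10 called higher and 7 lower. Of 7 tested microglial genes 4 were called lower, with 0 UMIs of C1QA and C1QC in members against 44.2 and 78.4 CPM of C1QC in the other cells. The fibroblast genes COL1A1, COL1A2 and COL3A1, relevant because fibroblasts also express PDGFRA, had 0 UMIs in all 218 members, which allows a share of cells with a UMI of up to 1.68% (exact 95% bound).

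**Figure D2:**
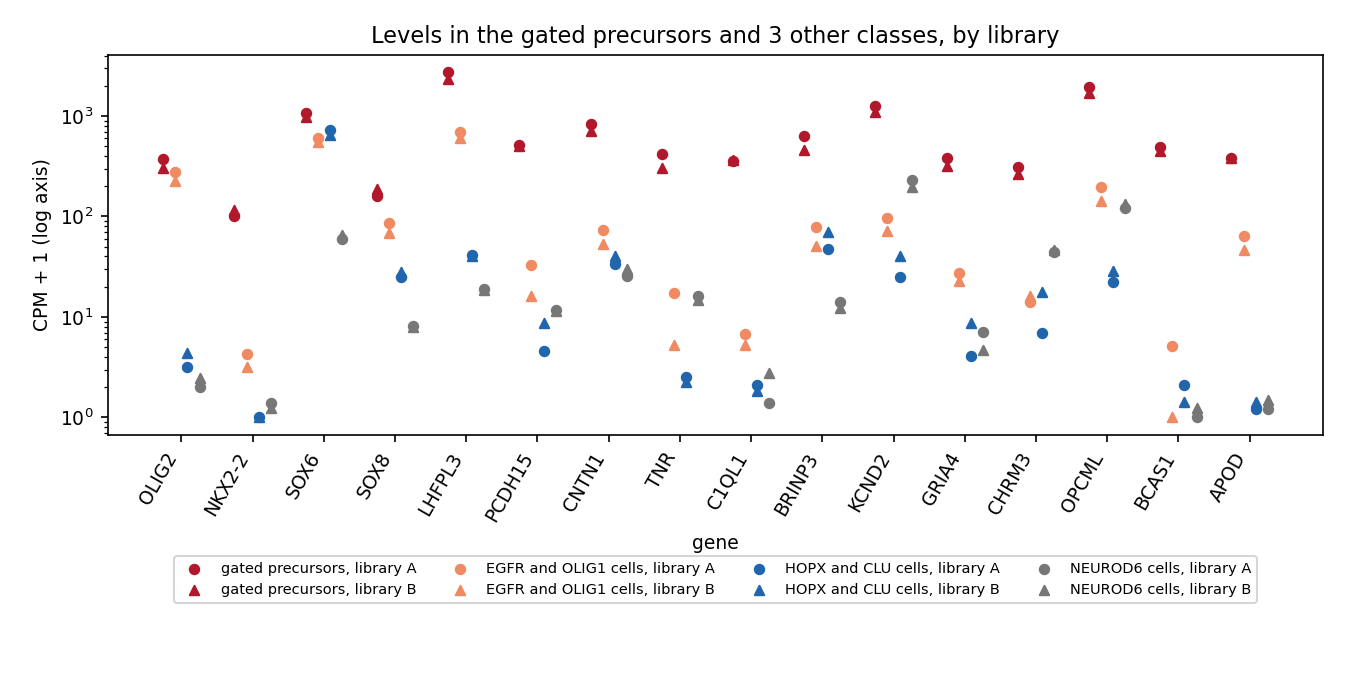
CPM plus 1 on a log axis for 16 genes in the gated precursors (red), cells with EGFR and OLIG1 (orange), cells with HOPX and CLU (blue) and cells with NEUROD6 (grey); circles are library A and triangles library B. The 2 libraries of the precursors lie together for every gene, and above the other classes; the gap to EGFR and OLIG1 cells is wide for C1QL1, TNR and BCAS1 and narrow for OLIG2, where EGFR and OLIG1 cells come close, and for SOX6, where HOPX and CLU cells do.

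The nearest cells by lineage were 293 (203 in library A and 90 in library B) that had EGFR and OLIG1 UMIs but none of PDGFRA, SOX10 or CLDN5. Their median depth was 5005 UMIs, close to that of members. OLIG2 was at 279 and 227 CPM there against 376 and 303 in members, a difference of 0.40 that was under 2-fold. The precursor markers beyond OLIG2 separated the classes. Of 24 tested, 16 were called higher in members and 0 lower, with a median of 2.37, where 7.03% of 8852 genes were called higher and 4.38% lower (11.4% in either direction). PCDH15 had 517 and 502 CPM in members and 32 and 15.1 CPM in the EGFR and OLIG1 cells, a difference of 4.21 on the log2 scale (SE 0.18, adjusted p = 3.07e-40) by edgeR. C1QL1 differed by 5.99, NKX2-2 by 5.04, TNR by 4.86 and LHFPL3 by 1.93. In libraries A and B alone PCDH15 was at 3.98 and 4.92 and TNR at 4.62 and 5.79.

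Many channels, transmitter receptors and adhesion proteins of the lists were called higher in members. Of 18 tested channel and receptor genes 12 were called higher and 0 lower, and of 21 adhesion and synapse organiser genes 14 were called higher and 0 lower. Outside the lists, the channel subunit KCNE5 and the glutamate receptor GRM3 were called lower. KCND2 had 1252 and 1104 CPM against 95.3 and 71.3, a difference of 3.75 on the log2 scale (SE 0.11, adjusted p = 3.99e-53) by edgeR. The kainate receptor subunit GRIK1 had 247 and 216 CPM against 15.6 and 4.32, and GRIA2 had 818 and 773 against 178 and 149. OPCML, an adhesion protein of the IgLON family, had 1964 and 1678 CPM against 194 and 140.4, a difference of 3.38. DSCAM differed by 2.55, LRRTM4 by 3.15 and NLGN1 by 1.15. The netrin receptors DCC and UNC5C were higher by 2.08 and 3.36 and their ligand NTN1 by 4.41, with UNC5C at 2.86 and 4.65 in libraries A and B alone.

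By the same rule the largest positive differences from EGFR and OLIG1 cells were those of SCIN, POSTN, VWC2, AFAP1L2, BCAS1, IRX1, IRX2, EGFL6, C1QL1, PLPP4, MEGF11 and PPP1R14A. SCIN, an actin-severing protein, had 102 and 98 CPM in members and 0 UMIs in all 293 cells of the other class. VWC2, AFAP1L2, IRX1, IRX2 and EGFL6 also had 0 UMIs there, and 25 to 37 UMIs in members. PPP1R14A had 48 UMIs in members, in only 14 of them, and had too few in the 199 PDGFRA members to be tested. The committed genes ran the same way, with 8 of 15 called higher and 0 lower: BCAS1 differed by 7.23 and by 5.66 with the 199 PDGFRA members, and by 6.73 in library A alone, since EGFR and OLIG1 cells of library B had 0 UMIs of it. TCF7L2, which DESeq2 did not call, lost its call in that check, since it went from 1.05 to 0.54.

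Members were lower than EGFR and OLIG1 cells for astroglial genes. Of 15 tested, 0 were called higher and 11 lower, with a median of -1.61. The glutamate transporter SLC1A3 had 118 and 107 CPM in members and 523 and 454 CPM in the other class, a difference of -2.15 on the log2 scale (SE 0.13, adjusted p = 4.34e-27) by edgeR, and the matrix protein TNC had 47.2 and 17.3 against 393 and 272. Both libraries ran the same way for each. BBOX1, a carnitine synthesis enzyme, had 3 UMIs in members and 181 in the other class, and KCNE5, a potassium channel subunit, had 11.2 and 5.77 CPM against 227 and 233. The lowest genes by the rule also included LTBP1, VIT, ANXA1, ALDH1L1, NOTCH3, WWTR1, RILPL2, CDKL4, GRM3 and TEAD2, all with 4 or fewer UMIs in members. WWTR1 and TEAD2 encode a coactivator and a DNA-binding partner of the Hippo pathway.

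Most tested genes of the hedgehog pathway and some of the Notch pathway were lower as well. Of 7 tested hedgehog pathway genes 6 were called lower and 0 higher. They were the signal transducer SMO at -2.27, the transcription factors GLI2 at -1.85 and GLI3 at -2.06, and the coreceptors BOC at -2.47, GAS1 at -1.57 and CDON at -1.04. SMO was at -1.92 and -3.16 and BOC at -2.14 and -3.08 in libraries A and B alone. The receptor and target PTCH1 was the exception, with 53.9 and 63.4 CPM in members and 31.2 and 28.1 in the other class, a difference of 0.88 that was not called. Of 12 tested Notch pathway genes 5 were called lower and 0 higher: the receptors NOTCH2 with 7 UMIs against 88 and NOTCH3 with 2 UMIs against 42, the target HES1 at -1.97 (-2.28 and -1.20 in libraries A and B alone) and the glycosyltransferases LFNG at -2.94 and MFNG at -3.26. The ligands DLL1 and DLL3 were at 0.01 and 0.25 and the target HES5 at -0.08, none of them called. The receptor NOTCH1, with 109 and 124 CPM in members and 132 and 110.2 in the other class, was at -0.16 and RBPJ, which carries the signal to DNA, at 0.04, and neither was called. HES5 had 155 and 153 CPM in members and 149 and 186 in the other class. DESeq2 did not call SMO, GLI2, BOC and CDON, nor HES1, NOTCH3 and MFNG, and CDON also lost its call in thinned cells and under the stricter gate.

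Immediate early genes, which respond to stimulation and also to tissue dissociation, had 4 of 9 called lower and 0 higher: FOS at -1.18, FOSB with 3 UMIs against 41, JUNB at -1.74 (-2.05 and -1.16 in libraries A and B alone) and BTG2 at -2.16. All the 9 had negative values. What part the dissociation had in this was not tested. Of 9 tested genes of the BMP list 4 were called lower and 2 higher. The target genes ID1, at -2.07, and ID4, at -1.42, were lower, as were BMP2 and BMPR1B. The target genes ID2, at 1.25, and ID3, at 2.38, were higher, so the called genes did not all share a direction. Among the immediate early and ID genes, DESeq2 did not call FOSB, ID2 and ID3, and the stricter gate did not call FOS and ID4. Cholesterol synthesis genes had 0 of 17 called in either direction by edgeR, with 3 at an unadjusted p under 0.05, and 0 by DESeq2.

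**Figure D3:**
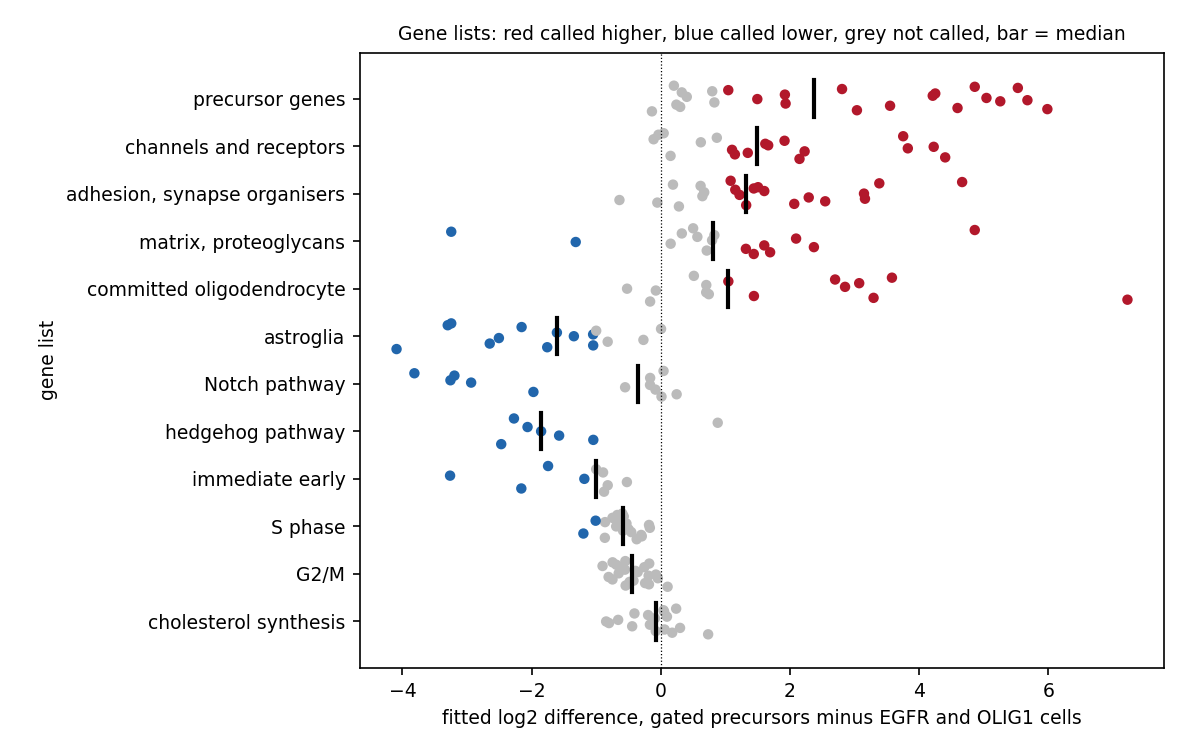
Fitted log2 difference of each tested gene, members minus EGFR and OLIG1 cells, by gene list (points; vertical offset only separates them), with called genes in red (higher) or blue (lower), others in grey and the list's median as a bar. Precursor, channel and adhesion lists lie mostly to the right, astroglial and hedgehog lists to the left, and the cholesterol list is centred near 0; the medians of the S phase and G2/M lists are -0.58 and -0.45.

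The third comparison was with 1082 cells (693 and 389) that had HOPX and CLU UMIs and none of OLIG1, PDGFRA, SOX10 or CLDN5. This gate was meant to take both astroglial and radial glial cells, which it does not separate. Their median depth was 5779.5 UMIs. The precursor list had 20 of 28 called higher and 1 lower, with a median of 4.29, where 8.65% of 11449 genes were called higher and 11.7% lower (20.4% in either direction). The 1 called lower was COL9A3, at -1.48. The named genes with the largest positive differences were NKX2-2, APOD, CDCP1, BCAS1, VWC2, IRX2, C1QL1, MATN4, TNR, NETO1, GFRA1 and SNX22, several of them shared with the comparisons above, which use the same member cells. NKX2-2 had 130 UMIs in 87 members and 0 in the 1082 cells. NETO1, an auxiliary subunit of glutamate receptors, had 287 UMIs against 7, a difference of 7.66 on the log2 scale (SE 0.26, adjusted p = 3.52e-18) by edgeR, and of 7.86 and 7.03 in libraries A and B alone.

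Most cholesterol synthesis genes tested were lower in members than in this class. Of 18 tested genes 0 were called higher and 12 lower, with a median of -1.23. HMGCS1, an early enzyme of the pathway, had 96.6 and 101 CPM in members, 439.9 and 419 CPM in the HOPX and CLU cells and 78.6 and 97 CPM in NEUROD6 cells. The difference from HOPX and CLU cells was -2.22 on the log2 scale (SE 0.11, adjusted p = 8.20e-15) by edgeR. FDPS, a later enzyme of the pathway, differed by -1.57 and LSS, which closes the sterol rings, by -1.96. APOE, which carries cholesterol between cells, had 25.8 and 28.8 CPM in members and 833 and 992 in the other class. The 2 classes were not tested against the NEUROD6 cells.

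Growth factor receptors differed in both directions, with 4 of 16 called higher and 7 lower. ERBB3 had 19 UMIs against 0, which DESeq2 did not call, and ERBB4 differed by 2.11. The fibroblast growth factor receptors FGFR1 and FGFR2 were at -1.52 and -3.76 and FGFR3 had 3 UMIs against 191. EGFR was 3.95 above the HOPX and CLU cells, which had it at 12.4 and 10.2 CPM. PDGFA was higher by 3.43, CCND1 by 5.20, ETV4 by 4.03 and DUSP6 by 3.87, and 4 of the 13 tested genes of the ERK list were called higher and 0 lower. In libraries A and B alone FGFR2 was at -4.33 and -2.79, EGFR at 4.30 and 2.90, PDGFA at 3.86 and 2.31 and CCND1 at 4.85 and 5.85.

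Astroglial genes had 0 of 15 called higher and 13 lower. This list too was chosen with earlier results of these data known, so it is no independent check of the HOPX and CLU gate. SLC1A3 had 118 and 107 CPM in members and 1550.2 and 1288 in the other class, and GABA receptor subunits, which astroglia also express, were lower in members, with GABRB1 at -3.53 and GABRG1 with 2 UMIs against 211.

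Patterning genes also differed here. Dorsal genes had 0 of 8 called higher and 7 lower, with FEZF2 at -4.83, LHX2 at -3.03 and PAX6 at -2.73. Ventral genes had 8 of 12 called higher and 3 lower. GSX2 had 61.8 and 54.8 CPM in members against 1.99 and 0.424, a difference of 5.23, and NKX2-1 had 15.7 and 14.4 against 0 and 1.27, a difference of 4.90. DLX1 differed by 1.60, DLX2 by 1.28, GAD1 by 1.34 and GAD2 by 1.54, while SP8 at -1.55 and MEIS2 at -1.50 were lower. Libraries A and B alone gave 4.82 and 6.38 for GSX2 and 1.82 and 0.93 for GAD2, and all the FEZF2 UMIs of members were in library A. DESeq2 did not call DLX2, GAD1, GAD2 and SP8, and under the stricter gate these and DLX1 were not called, with GAD1 at -0.16. GSX2 was also present in the EGFR and OLIG1 cells, at 40.3 and 43.2 CPM, and its difference from members there, 0.51, was not called.

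For Notch, 3 of 13 tested genes were called higher and 6 lower than in HOPX and CLU cells. The ligands DLL1 and DLL3 were higher, by 4.31 and 4.26, as was JAG1 by 1.78 (DLL1 was at 4.74 and 3.45 in libraries A and B alone, and JAG1 was not called by DESeq2, without the low-count filter or under the stricter gate), and the receptors NOTCH2 and NOTCH3 and the targets HES1, HES5 and HEY1 were lower. DLL3 had 303 and 320.0 CPM in members and 10.8 and 22.9 CPM in the other class, and HES1 had 21.3 and 31.7 against 305 and 275. LFNG, at -4.07, was the sixth gene called lower. The largest negative differences by the rule were those of FXYD1, GJB6, ISG15, CDA, TM4SF1, CCN4, PDGFRB, AQP4, NOTCH2, ACE, LIPG and BBOX1, of which the first 5 had 0 UMIs in members. AQP4, the water channel of astrocytes, had 5.62 and 0 CPM in members and 218 and 184 in the other class.

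The committed list had 12 of 18 tested genes called higher and 3 lower than in HOPX and CLU cells, and 6 of 16 higher and 3 lower with the 199 PDGFRA members, where 8.41% of all genes were called higher and 11.5% lower. The myelin list had 3 of 4 called higher with all members and 1 of 4 with the 199. ENPP6, MYRF and ERBB3 had too few UMIs in the 199 to be tested. NFASC went from 1.20 to -0.58, RRAS2 from 1.25 to 0.53, TCF7L2 from 1.40 to 0.89, FYN from 1.24 to 0.86 and CLDN11 from 2.68 to 0.41, so that none of these 5 was called. NFASC, CLDN11, FYN and RRAS2 were not called under the stricter gate either. BCAS1 was still called, at 7.33, as were BMP4, SIRT2, UGT8, TNS3 and CD9. Outside these lists CADM2, ROBO2, SOX21, APCDD1 and BMP7 also lost the call with the 199, with differences just under 2-fold.

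Within the members, 64 cells (49 in library A and 15 in library B) had an EGFR UMI and 154 (107 and 47) had none. The counts were spread out: 26 members had 1 UMI of EGFR, 10 had 2, 5 had 3 and 23 had 4 or more. Members with EGFR were lower for some of the genes that mark precursors and their commitment and higher for some cycle genes. Of 22 tested precursor genes 0 were called higher and 7 lower, and of 13 committed genes 0 were called higher and 5 lower, where 1.61% of 5606 genes were called higher and 2.53% lower (4.14% in either direction). With the 199 PDGFRA members, 8 of 22 precursor genes and 2 of 13 committed genes were called lower and 0 of either higher (1.18% of all genes called higher and 2.18% lower).

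The precursor genes that were lower were TNR, C1QL1, NKX2-2, MATN4, SEMA5A, CA10 and SULF2. C1QL1 had 142 and 70.4 CPM in members with EGFR in libraries A and B and 470.2 and 477 CPM in members without, a difference of -1.98 on the log2 scale (SE 0.24, adjusted p = 1.75e-13) by edgeR, and -1.89 with the 199. TNR had 120.3 and 141 CPM against 585 and 372, a difference of -2.02. Other markers were near equal: OLIG2 was at 0.14 and LHFPL3 at 0.10. OPCML at -1.44, CHRM3 at -1.91, GRM5 at -1.81 and CCND1 at -1.41 were lower, and these 4 were also called with the 199 members but not by DESeq2. Libraries A and B alone gave -1.72 and -2.65 for C1QL1, -2.27 and -1.35 for TNR and -1.12 and -2.07 for OPCML, and CHRM3 had 0 UMIs in the 15 cells of library B with EGFR. The stricter gate, with 88 members, called 0 genes higher and 5 lower in all, and C1QL1, TNR, CHRM3, GRM5 and CCND1 were not among them.

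BCAS1 had 47.5 and 20.1 CPM in members with EGFR and 728 and 626 CPM in members without. The difference was -4.12 with all members and -2.53 with the 199, called both times. Of the 19 cells without PDGFRA, 1 held EGFR. Without them NFASC went from -3.35 to -1.39 and DBNDD2 from -3.31 to -1.01, both losing the call. UGT8 held it, at -2.47 and -1.97. Libraries A and B alone gave -3.69 and -2.06 for NFASC and -2.99 and -1.19 for UGT8. DESeq2 did not call UGT8, and the stricter gate called neither UGT8 nor BCAS1. The other named genes that were lower were DOCK9, GNB4, POSTN, TUBB4A, CDCP1, SEMA5A, CLDN11 and UST. Of these DOCK9, GNB4, CDCP1 and CLDN11 had too few UMIs in the 199 members to be tested. TUBB4A went from -3.70 to -1.61, UST from -2.96 to -1.96 and SEMA5A from -3.27 to -3.06, all still called, though DESeq2 did not call TUBB4A, and UST was not called in thinned cells or under the stricter gate. POSTN had 22.2 and 0 CPM against 225 and 242 and kept -3.83 with the 199 members.

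Higher in members with EGFR were IGFBP5, a binding protein of insulin-like growth factors, and GAS1. IGFBP5 had 190.0 and 181 CPM in members with EGFR, 17.4 and 8.08 in members without and 548 and 529 in EGFR and OLIG1 cells. The difference within members was 3.65 on the log2 scale (SE 0.42, adjusted p = 1.13e-15) by edgeR. The 59 members with a gate sum of exactly 2 had IGFBP5 at 259 and 164 CPM, against 78.7 and 57.7 over all members. Their EGFR was also above that of all members, at 763 and 175 CPM against 258 and 80.7. How far the EGFR split follows the gate threshold was not tested. GAS1 had 329 and 352 CPM against 92.3 and 60.6, a difference of 2.05, and 493 and 467 CPM in EGFR and OLIG1 cells. PAX6 was higher by 1.88 (1.34 and 3.25 in libraries A and B alone) and SLC1A3 by 1.32 (1.72 and 0.47), both without a call by DESeq2, and PAX6 also without one when cells scored above 0.2 as doublets were left out. GAS1 was not called under the stricter gate. The remaining named genes were GNMT, CHAF1A, NOPCHAP1, EXO1, DEPDC1B, CDCA8, ZNF671, H1-5, RHBDD1 and KIF15, of which CHAF1A, EXO1, DEPDC1B, CDCA8, H1-5 and KIF15 act in DNA replication, repair, chromatin or mitosis. With the 199 members CDCA8 and RHBDD1 had too few UMIs to be tested, and the other 8 were called.

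Of 19 tested G2/M genes 5 were called higher in members with EGFR and 0 lower, with a median of 0.95: TOP2A at 1.54, CCNA2 at 1.85, PRC1 at 1.52, AURKB at 1.33 and CENPE at 1.18. TOP2A had 380.0 and 422 CPM against 148 and 113. With the 199 members 5 of 18 were called higher and 0 lower. Of 12 tested S phase genes RRM2 at 1.06 (1.52 and 0.20 in libraries A and B alone) and UHRF1 at 1.33 were called higher and 0 lower. Neither was called by DESeq2, nor with the 199 members, where they were at 0.87 and 1.04. Members with EGFR had a median of 6033.5 UMIs against 4911.5, and 14.1% of them had a doublet score above 0.2 against 5.19%. Without cells scored above 0.2 the genes called higher in all fell from 90 to 48. In cells thinned to 1500 UMIs 12 genes were called higher and 43 lower, and DESeq2 called 2 higher and 19 lower, with 0 of these 5 G2/M genes among them. Unthinned, 35.9% of members with EGFR and 20.8% of those without had an MKI67 or TOP2A UMI. In thinned cells, with EGFR also read after thinning, the shares were 20% and 13.5%. Library A gave 21.2% and 13.8% and library B 14.3% and 12.7%, where the 14.3% was 1 cell. These shares were not tested. Library B held 15 cells with EGFR before thinning, which limits the whole comparison by EGFR.

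**Figure D4:**
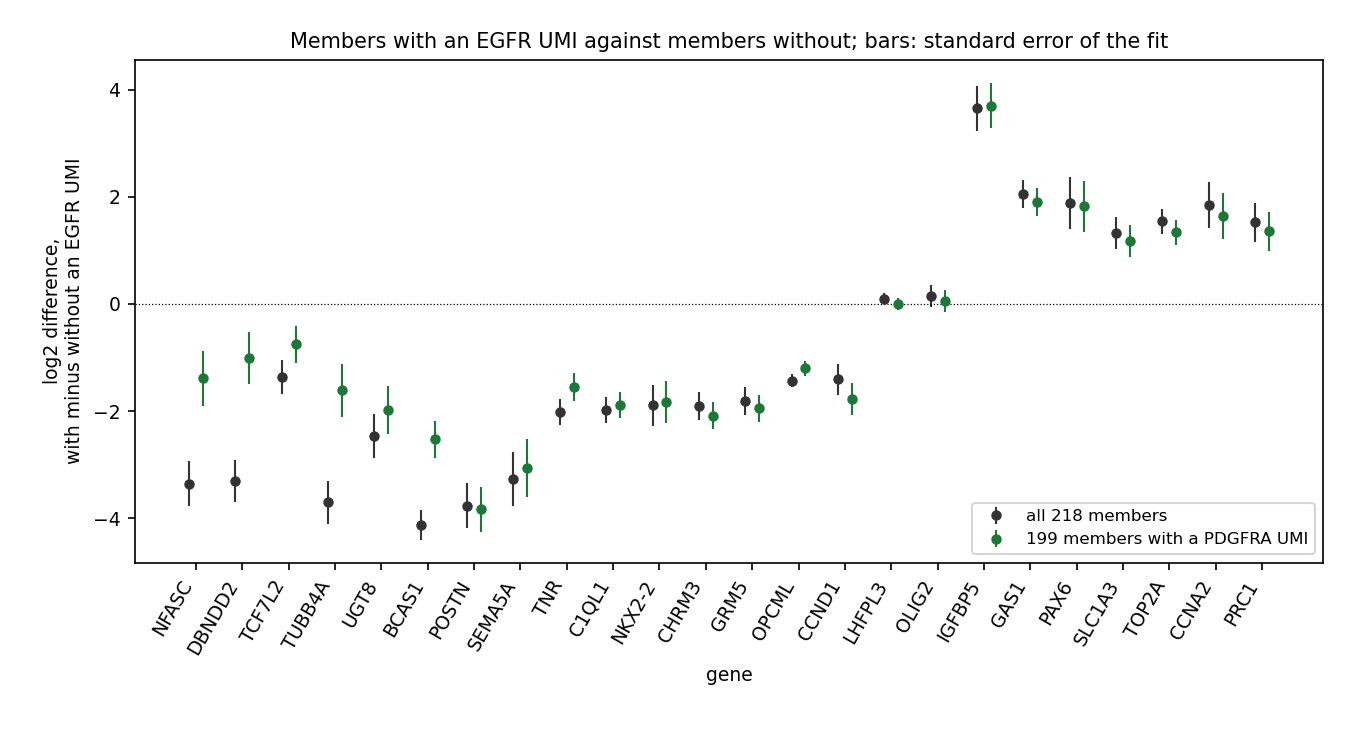
Fitted log2 difference (points) with its standard error (bars) for 24 genes, members with an EGFR UMI minus members without, for all 218 members (dark) and for the 199 with a PDGFRA UMI (green). NFASC moves from -3.35 to -1.39 when the 19 cells are left out, while C1QL1, CHRM3, IGFBP5, GAS1 and TOP2A stay close to where they were.

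Proliferation was compared as the share of cells with a UMI of MKI67 or TOP2A after every cell was thinned to 1500 UMIs. Among members it was 15.4% in library A (24 of 156 cells, exact 95% binomial interval 10.1 to 22.0) and 12.9% in library B (8 of 62, 5.74 to 23.9). In EGFR and OLIG1 cells it was 21.2% and 24.4%, in HOPX and CLU cells 9.67% and 11.6%, and in NEUROD6 cells, which as neurons should not divide, 3.23% and 3.31%. Unthinned, the shares were 25.6% and 24.2% in members, 36.9% and 33.3% in EGFR and OLIG1 cells, 21.2% and 22.6% in HOPX and CLU cells and 7.21% and 6.34% in NEUROD6 cells. Members were above the NEUROD6 background in both libraries and below the EGFR and OLIG1 cells in both, though the intervals of these last 2 classes overlapped.

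The tests by gene gave no call for most of the cycle lists. Against all other cells, 0 of 19 S phase and 0 of 22 G2/M genes were called in either direction by edgeR, with 6 and 4 at an unadjusted p under 0.05, and 0 by DESeq2. Against EGFR and OLIG1 cells, PCNA at -1.01 and E2F1 at -1.20 were called lower among 19 S phase genes, and 0 of 22 G2/M genes were called by edgeR or DESeq2, with 9 at an unadjusted p under 0.05 and TOP2A at -0.69. DESeq2 did not call E2F1. PCNA lost its call with the 199 members, at -0.91, and in thinned cells. Against HOPX and CLU cells, MKI67 at 1.17, CENPF at 1.11 and AURKA at 1.05 (1.42 and 0.27 in libraries A and B alone) were called higher of 22. DESeq2 called neither MKI67 nor AURKA. Of 19 S phase genes 0 were called by edgeR or DESeq2, with 4 at an unadjusted p under 0.05.

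**Figure D5:**
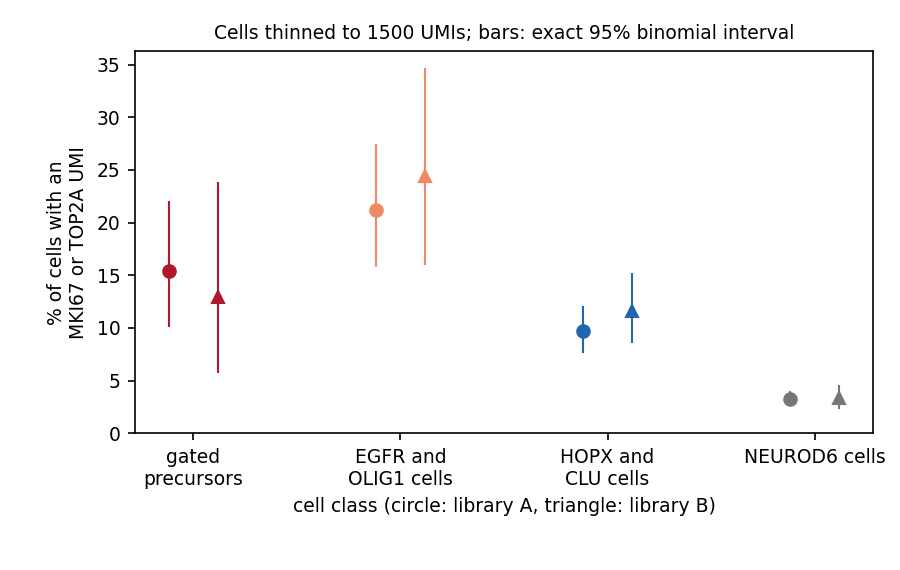
Percent of cells with an MKI67 or TOP2A UMI after thinning each cell to 1500 UMIs, by class, with circles for library A, triangles for library B and exact 95% binomial intervals as bars. Members sit at 15.4% and 12.9%, EGFR and OLIG1 cells at 21.2% and 24.4%, and NEUROD6 cells at 3.23% and 3.31%.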

How the data were processed

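Dissociated cells were profiled with 10x Genomics chemistry, and the deposited values are UMI counts per gene and cell, which the submitters' processing notes tie to Cell Ranger as the authors' tool. Neither a Cell Ranger version nor a build was named there, so both remain not given in the sources used. No cell in the deposited table held under 1501 UMIs. It held 41836475 UMIs in 9782 cells of library A (barcode suffix 3) and 18907140 in 5005 cells of library B (suffix 4), and 8499 of its 29816 gene names had no UMI.

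UMIs were summed per class and library in Python 3.11.15. Comparisons used edgeR 4.0.16 (TMM scaling, its default low-count filter, quasi-likelihood test, library as a block because each library gives every class) in R 4.3.3, with DESeq2 1.42.0 as an alternative. With 2 libraries a 2-class fit has 1 residual degree of freedom, and the spread is shared across genes. The code was tested on simulated data. The largest 12 called differences in each direction at 20 CPM or more in the higher class were named, leaving out gate genes and names that are only identifiers, and members of the gene lists could be named beside them. A few genes stayed in every fit and count but are not reported here by name. The members and lists were chosen with earlier results of these data known. Scrublet in scanpy 1.11.5 scored doublets and called 6 cells, 0 of them members, too few for the caller to have worked, and none were removed. A split of members by GPR17 was planned but not run, since libraries A and B held 14 and 4 members with GPR17, under the minimum of 20 set for it. No sequences were used here.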

Additional observations from a re-analysis of the deposited data

How the results depend on the processing

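Counts of called genes depended on the test and on depth, while directions mostly did not. DESeq2 called 395 genes lower against all other cells, 230 higher and 87 lower against EGFR and OLIG1 cells, 542 and 648 against HOPX and CLU cells, and 2 and 19 between members with and without EGFR. Thinning to 1500 UMIs, which leaves fewer genes to test, gave 508 higher and 602 lower against all other cells, 278 higher and 151 lower against EGFR and OLIG1 cells, 609 higher and 778 lower against HOPX and CLU cells, and 12 higher and 43 lower in the EGFR split. For the EGFR split, no low-count filter gave 44 higher, leaving out cells with a Scrublet score above 0.2 gave 48, and the stricter gate (PDGFRA and SOX10 each with a UMI, 88 members) gave 0 higher and 5 lower. That gate took 0.624% of cells in library A and 0.539% in library B, and a looser one (a sum of 1) took 2.39% and 1.82%. Unthinned, the share of members with MKI67 or TOP2A was 25.6% and 24.2%. Without the replicate block, the fits called 817 higher and 899 lower against all other cells, 612 higher and 385 lower against EGFR and OLIG1 cells, 995 higher and 1344 lower against HOPX and CLU cells, and 74 higher and 128 lower in the EGFR split. The alternative without the 19 members lacking PDGFRA was chosen after seeing the data. It turned the sign of ENPP6 against all other cells (-0.23, and -0.17 under the stricter gate), and of NFASC against HOPX and CLU cells (-0.58, and -0.088). GAD1 turned to -0.16 against HOPX and CLU cells under the stricter gate. The cause of the other changes was not tested. By the rule for calls, each library alone kept the sign of every called gene that is named or listed, and these are values with no test.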
